A study of Homo sapiens with 24 samples.

Results

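The 10 genes described here encode WNT ligands (WNT2B, WNT3, WNT5A, WNT5B, WNT6, WNT7A, WNT7B, WNT9A, WNT10A and WNT11). They were taken by name from the 28277 genes of each of 2 RNA-seq count tables, and all 10 passed the filter on low counts in both. The other 9 human WNT genes are described more briefly near the end.

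PEO1 and PEO4 are high-grade serous ovarian carcinoma cell lines from a single patient, PEO1 sensitive and PEO4 resistant to cisplatin. One table holds 6 libraries of untreated cells, 3 of the original PEO1 line, which is impaired in BRCA2, and 3 of PEO4. Both are labelled WT, and both were grown with added sodium pyruvate. The other table holds 18 libraries of PEO1 BRCA+ cells, labelled BRCA2+, and of PEO4, labelled WT. Each line was untreated or kept for 2 or 6 h in 5 µM pyridostatin (PDS), with 3 libraries a condition and no vehicle control named. PDS is a small molecule that binds and stabilises G-quadruplexes (G4s), folds that guanine-rich DNA can adopt. The study's figure legends call its RNA-seq replicates biological, while the labels only number them and neither says whether they were separate cultures, so p-values measure the spread between these samples of 1 line each.

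WNT ligands are secreted, lipid-modified proteins. The acyltransferase PORCN adds the lipid, WLS carries the ligand to the cell surface, and frizzled receptors with LRP5 or LRP6 receive it. Ligands such as WNT3, WNT7A and WNT10A typically stabilise beta-catenin, which turns on feedback genes such as AXIN2 and NOTUM, whereas WNT5A, WNT5B and WNT11 are best known for signals that do not use beta-catenin. In the female reproductive tract WNT7A patterns the Müllerian duct, from which the fallopian tube arises.

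PDS binds G4s, so the 250 bases upstream of RefSeq starts were searched on both strands for the usual G4 pattern. That pattern was 4 runs of at least 3 G with 1 to 7 bases between runs. Some of these starts, as for WNT3, WNT5A and WNT5B, lie inside the span of the gene in GENCODE. RefSeq windows (GRCh38.p14) were found for 8 of the 10 genes, 11 windows in all. By gene, 7 of the 8 had a match in at least 1 window, and by window 7 of the 11 had a match. WNT2B, WNT5A and WNT5B had more than 1 window each, and 1 of those of WNT5B is printed. Of 12445 tested genes with a window 38.6% had a match, as did 23.5% of all 35116 windows. The 5 windows printed here belong to the neighbours WNT6 and WNT10A, which fell most after 2 h of PDS in PEO4, to WNT7A, which moved in opposite directions in the lines, to WNT9A, which rose in PEO4, and to WNT5B, the member without a match. Capitals mark the matches, which are runs of C where the pattern lies on the other strand.
WNT6 (chr2:218859555-218859804, plus strand): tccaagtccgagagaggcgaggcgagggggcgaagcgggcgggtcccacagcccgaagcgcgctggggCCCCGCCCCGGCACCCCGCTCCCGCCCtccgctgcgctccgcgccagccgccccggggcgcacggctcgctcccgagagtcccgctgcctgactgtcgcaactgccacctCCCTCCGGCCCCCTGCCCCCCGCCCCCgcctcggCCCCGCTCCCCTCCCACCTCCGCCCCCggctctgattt
WNT10A (chr2:218880602-218880851, plus strand): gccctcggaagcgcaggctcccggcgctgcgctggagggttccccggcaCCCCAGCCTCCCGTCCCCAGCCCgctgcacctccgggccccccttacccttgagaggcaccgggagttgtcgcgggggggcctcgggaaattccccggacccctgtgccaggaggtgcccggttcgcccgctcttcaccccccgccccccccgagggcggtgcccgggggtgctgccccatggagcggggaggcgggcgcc
WNT7A (chr3:13880072-13880321, minus strand): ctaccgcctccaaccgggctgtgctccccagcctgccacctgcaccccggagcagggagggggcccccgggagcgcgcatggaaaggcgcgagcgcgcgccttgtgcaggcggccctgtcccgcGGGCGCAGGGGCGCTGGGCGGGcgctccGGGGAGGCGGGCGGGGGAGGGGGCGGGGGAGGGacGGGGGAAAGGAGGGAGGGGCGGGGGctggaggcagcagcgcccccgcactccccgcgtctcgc
WNT9A (chr1:227947933-227948182, minus strand): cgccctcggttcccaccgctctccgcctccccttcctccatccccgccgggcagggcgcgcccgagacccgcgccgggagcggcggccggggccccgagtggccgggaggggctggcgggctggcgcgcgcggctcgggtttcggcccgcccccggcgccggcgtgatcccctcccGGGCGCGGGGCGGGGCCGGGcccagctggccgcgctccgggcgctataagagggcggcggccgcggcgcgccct
WNT5B (chr12:1616806-1617055, plus strand): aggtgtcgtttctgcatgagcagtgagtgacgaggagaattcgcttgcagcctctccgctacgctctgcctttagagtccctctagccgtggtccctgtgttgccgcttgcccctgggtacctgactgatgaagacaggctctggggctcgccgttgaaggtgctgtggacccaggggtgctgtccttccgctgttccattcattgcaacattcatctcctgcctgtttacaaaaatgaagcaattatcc
WNT6 had 3 matches and WNT10A had 1, all on the other strand, while WNT7A had 3 and WNT9A had 1 on the strand of the gene. The GC content was 79.2% in the window of WNT6, 77.6% in that of WNT10A, 80.4% in that of WNT7A, 84.4% in that of WNT9A and 54.8% in that of WNT5B, against a median of 58.0% over all windows. A match describes letters, not a folded G4.

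In GENCODE 44 (GRCh38) WNT6 (chromosome 2, 218859805 to 218874233) and WNT10A (chromosome 2, 218880852 to 218899581) lie 6618 bases apart on the plus strand. WNT7A (chromosome 3, 13816258 to 13880071) and WNT5A (chromosome 3, 55465715 to 55490539) are on the minus strand, as are WNT9A (chromosome 1, 227918656 to 227947932), WNT3 (chromosome 17, 46762506 to 46833154), WNT11 (chromosome 11, 76186325 to 76210736) and WNT7B (chromosome 22, 45920366 to 45977162). WNT2B (chromosome 1, 112466541 to 112530165) and WNT5B (chromosome 12, 1529891 to 1647212) are on the plus strand. The strand setting used in counting is not given in the sources used here. The values of WNT2B and WNT5B, which overlap ST7L and FBXL14 on the other strand, are thus less certain. WNT9A overlaps MIR5008 on the same strand, so its value is less certain under any strand setting. In RefSeq, though not in GENCODE, WNT6 also overlaps WNT10A, and WNT3 overlaps LRRC37A2.

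Libraries in the table of 18 had a depth of 18699929 to 22375644 counts when untreated and 33260167 to 43713947 after PDS, and those in the table of 6 had 32528913 to 63882077. The share of ribosomal RNA genes was 0.217 to 0.474% without and 0.0163 to 0.0369% with PDS in the table of 18. Depth and ribosomal share thus moved with treatment, and their part in the results was not tested. BRCA2 mRNA averaged 8.23 CPM (counts scaled to library size, with TMM factors) in BRCA2-deficient PEO1 and 8.24 CPM in untreated PEO1 BRCA+, but PEO1 carries a nonsense mutation and PEO1 BRCA+ a reversion, which mRNA levels do not check. All 8 epithelial and ovarian markers (PAX8, WT1, MUC16, EPCAM, KRT7, KRT8, KRT18 and CDH1) averaged at least 1 CPM in every group, but not all held their level. MUC16, which encodes the antigen CA125, was at 545 CPM in untreated PEO4 and 51.6 at 6 h (log2 fold change -3.40), and at 413 and 68.6 CPM in PEO1 BRCA+ (-2.59). KRT7 was at 3312 CPM in untreated PEO1 BRCA+ and 1046 in PEO4 (-1.66), and WT1 at 101 and 166 CPM. Some markers rose with PDS. In PEO4 EPCAM was at 397 CPM untreated and 571 at 6 h, and KRT7 at 1046 and 1684. In PEO1 BRCA+ KRT8 was at 3265 CPM untreated and 4880 at 6 h, and KRT18 at 1695 and 2554. By adjusted p alone, 2 of the 8 were higher and 4 lower in PEO4 at 6 h, and 4 higher and 1 lower in PEO1 BRCA+. The 5 fibroblast markers, nearly all COL1A1 and COL1A2, summed to 29.7 to 31.0 CPM in untreated PEO4 of the table of 18 and to 3.29 to 4.48 CPM after 6 h of PDS. In those untreated libraries COL1A1 ranged from 13.7 to 28.3 CPM and COL1A2 from 1.80 to 17.3 CPM. The part of these markers in the results in PEO4 was not tested. Of the 5 leukocyte markers only CD68 averaged 1 CPM or more in any group and CD3E was at 0 in all 24 libraries, while the leukocyte sum, nearly all CD68, was 32.2 to 54.5 CPM in untreated PEO4 of the table of 18 and 68.0 to 78.0 CPM at 6 h, which was not tested for its part either. The 4 endothelial markers summed to 1.61 to 2.76 CPM in untreated PEO4 of the table of 18 and to 0.183 to 0.209 CPM at 6 h, where PECAM1 (-3.58) and VWF (-4.17) fell, and their part was not tested. In bulk RNA, fewer cells of a type and less RNA per cell cannot be told apart.

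Which ligands each line expressed most was read from levels per length (CPM per kb of exon sequence). In BRCA2-deficient PEO1 WNT7B led with 26.5, followed by WNT10A with 9.97 and WNT9A with 8.24. In untreated PEO1 BRCA+ WNT7B led with 61.8, ahead of WNT10A with 25.2, WNT7A with 19.6 and WNT9A with 17.3, of which WNT7A and WNT9A had overlapping ranges. PEO4 had another order: WNT10A (48.6), WNT6 (39.9) and WNT11 (30.8) came first in the table of 18, each range overlapping the next, and WNT10A (16.4) and WNT11 (7.38) came first in the table of 6, without overlap. WNT3 was lowest in every group except PEO4 of the table of 6, where WNT5B was lowest and its range overlapped that of WNT3.

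The summed level of the 10 ligands was 129 ± 10.6 CPM per kb in untreated PEO1 BRCA+ and 151 ± 12.5 in untreated PEO4 of the same table (SD, n = 3). In PEO1 BRCA+ it was 136 ± 2.04 after 2 h of PDS and 138 ± 0.942 after 6 h, within the untreated range of 121 to 141. In PEO4 it was 42.6 ± 1.49 at 2 h and 35.6 ± 1.25 at 6 h, so that the highest treated library, at 44.2, lay far under the lowest untreated one, at 137. The makeup changed with it: in PEO4 WNT10A and WNT6 were 32.3% and 26.2% of the sum when untreated and 13.4% and 5.65% at 6 h, while WNT9A went from 2.93% to 39.0%. In PEO1 BRCA+ WNT7B was 48.1% of the sum untreated and 39.6% at 6 h, and WNT7A was 15.3% and 29.8%. In the table of 6 the sum was 65.5 ± 2.21 in BRCA2-deficient PEO1 and 36.0 ± 0.629 in PEO4.

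**Figure D1:**
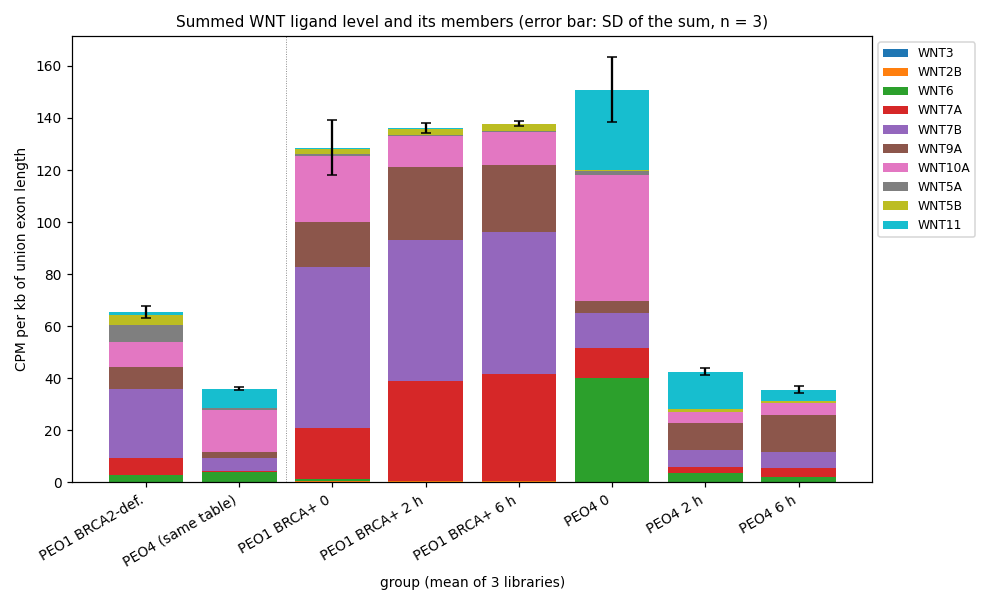
Stacked bars of the mean level of the 10 ligands (CPM per kb of exon sequence) in the 8 groups, with an error bar for the SD of the sum over 3 libraries. The sum in PEO4 is 151 untreated, 42.6 after 2 h and 35.6 after 6 h of PDS, while in PEO1 BRCA+ it is 129, 136 and 138. The dotted line separates the 2 tables, which were normalised separately.

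Untreated PEO4 was compared with each PEO1 line by edgeR's quasi-likelihood test, with p-values adjusted by Benjamini-Hochberg over all genes tested. A call needed an adjusted p under 0.05 together with a log2 fold change beyond 1 in either direction. Against BRCA2-deficient PEO1, PEO4 was higher in 1 ligand (WNT11) and lower in 5 (WNT5A, WNT5B, WNT7A, WNT7B and WNT9A), where 12.6% of 15882 genes tested were higher and 13.1% lower. Against PEO1 BRCA+ it was higher in 3 (WNT3, WNT6 and WNT11) and lower in 4 (WNT2B, WNT5B, WNT7B and WNT9A), where 12.2% of 17020 genes were higher and 12.6% lower. The ranges of the lines overlapped for WNT3 in both pairs and for no other member, where 67.9% of all genes tested in the table of 6 and 68.5% in the table of 18 had ranges that did not overlap, so the lack of overlap is common. The median log2 fold change of the 10 was -1.27 and -0.0063 in the pairs, against -0.0061 and -0.0011 over all genes tested.

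Among the ligands that act on beta-catenin, WNT7B and WNT9A were lower in PEO4 in both pairs. WNT7B, a ligand of lung and kidney development, was at 304, 294 and 344 CPM in PEO1 BRCA+ and 71.1, 73.7 and 63.5 CPM in PEO4, a log2 fold change of -2.18 (SE 0.0889, adjusted p = 2.59e-15). In the table of 6 it was at 138, 137 and 129 CPM in BRCA2-deficient PEO1 and 21.1, 31.5 and 28.3 CPM in PEO4 (-2.33 on the log2 scale, SE 0.127, adjusted p = 4.1e-08). No PEO4 library reached a PEO1 library. WNT9A, known from joint development, was at 70.4, 60.7 and 77.0 CPM in PEO1 BRCA+ and 16.1, 21.0 and 15.2 in PEO4, a log2 fold change of -1.997 (SE 0.114, adjusted p = 9.02e-12). Beside BRCA2-deficient PEO1, at 34.1, 33.3 and 31.6 CPM, PEO4 was at 6.42, 9.70 and 8.23 (-2.03 on the log2 scale, SE 0.138, adjusted p = 7.33e-08). Again the lines did not overlap.

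WNT6 and WNT7A differed in size between the pairs. WNT6, which lies next to WNT10A, was at 1.68, 0.991 and 1.67 CPM in PEO1 BRCA+ and 80.8, 48.0 and 77.1 CPM in PEO4, a log2 fold change of 5.58 (SE 0.286, adjusted p = 1.3e-10). In the table of 6 it was at 4.52, 3.52 and 5.52 CPM and 6.01, 6.07 and 6.79 CPM, a difference of 0.47 (95% interval 0.07 to 0.87, adjusted p = 0.0417) on the log2 scale, under the fold threshold. The lines did not overlap in either pair. WNT7A was at 30.7, 28.9 and 27.6 CPM in BRCA2-deficient PEO1 and 1.02, 1.81 and 0.857 CPM in PEO4, a log2 fold change of -4.59 (SE 0.206, adjusted p = 3.63e-09). Beside PEO1 BRCA+, at 87.1, 92.1 and 86.4 CPM, PEO4 was at 50.7, 69.1 and 33.6 (-0.80 on the log2 scale, 95% interval -1.19 to -0.40, adjusted p = 0.00158). All PEO4 values lay under the PEO1 values in both pairs, but beside PEO1 BRCA+ the difference was under the fold threshold, except without PEO4 replicate 2 (-1.07).

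The other 3 ligands of this kind differed less or rested on few reads. WNT10A, a ligand of tooth and hair development, was at 67.2, 67.2 and 86.5 CPM in PEO1 BRCA+ and 147, 134 and 145 in PEO4 (0.95 on the log2 scale, 95% interval 0.78 to 1.11, adjusted p = 1.03e-10). It was at 27.9, 32.0 and 27.4 CPM in BRCA2-deficient PEO1 and 56.6, 41.5 and 45.8 in PEO4 (0.73, 95% interval 0.47 to 0.98, adjusted p = 0.000151). PEO4 was higher in all libraries of both pairs, under the fold threshold except beside PEO1 BRCA+ without its replicate 3 (1.08). WNT2B was at 7.91, 6.07 and 7.24 CPM in PEO1 BRCA+ and 1.95, 2.16 and 2.58 in PEO4, a log2 fold change of -1.66 (SE 0.188, adjusted p = 2.2e-08), and the lines did not overlap. In the table of 6 the difference was -0.50 (95% interval -0.94 to -0.07, adjusted p = 0.0453) on the log2 scale, under the fold threshold. WNT3, a ligand of early axis formation, had 7, 0 and 1 counts in PEO1 BRCA+ and 5, 18 and 17 in PEO4, and its log2 fold change of 2.35 (SE 0.856, adjusted p = 0.0193) was no longer called when any 1 of 4 of these 6 libraries was left out (adjusted p 0.0558 to 0.0798). Those 4 were replicates 2 and 3 of each line, and without replicate 1 of PEO1 BRCA+ the log2 fold change was 4.64. In the table of 6 WNT3 differed by 1.02 (95% interval -0.44 to 2.47, adjusted p = 0.205), and was called without PEO4 replicate 1 (1.53, adjusted p = 0.0397).

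Of the ligands known for signals without beta-catenin, WNT11, which acts in kidney branching, was the member most raised in PEO4. It was at 0.479, 0.826 and 0.966 CPM in PEO1 BRCA+ (10 to 22 counts) and 63.5, 61.6 and 94.0 CPM in PEO4, a log2 fold change of 6.57 (SE 0.258, adjusted p = 1.6e-12). Beside BRCA2-deficient PEO1, at 2.80, 2.80 and 3.98 CPM, PEO4 was at 16.2, 17.6 and 18.6 (2.44 on the log2 scale, SE 0.160, adjusted p = 5.22e-08). The lines lay apart in both pairs.

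WNT5A, which acts in cell polarity and migration, had opposite orders in the pairs. It was at 43.2, 49.3 and 46.5 CPM in BRCA2-deficient PEO1 and 3.53, 5.44 and 5.08 CPM in PEO4, a log2 fold change of -3.33 (SE 0.150, adjusted p = 2.72e-09). In PEO1 BRCA+ it was at 6.61, 5.49 and 6.01 CPM and in PEO4 at 10.4, 9.49 and 11.2, a difference of 0.78 (95% interval 0.50 to 1.07, adjusted p = 2.06e-05) on the log2 scale, under the fold threshold. Its close relative WNT5B was lower in PEO4 in both. It was at 23.0, 11.0 and 11.6 CPM in BRCA2-deficient PEO1 and 0.123, 0.284 and 0.122 CPM in PEO4 (4 to 10 counts), a log2 fold change of -6.48 (SE 0.448, adjusted p = 1.41e-06). In PEO1 BRCA+ it was at 7.95, 9.38 and 9.04 CPM and in PEO4 at 1.86, 1.51 and 1.89, a log2 fold change of -2.32 (SE 0.162, adjusted p = 3.11e-12).

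**Figure D2:**
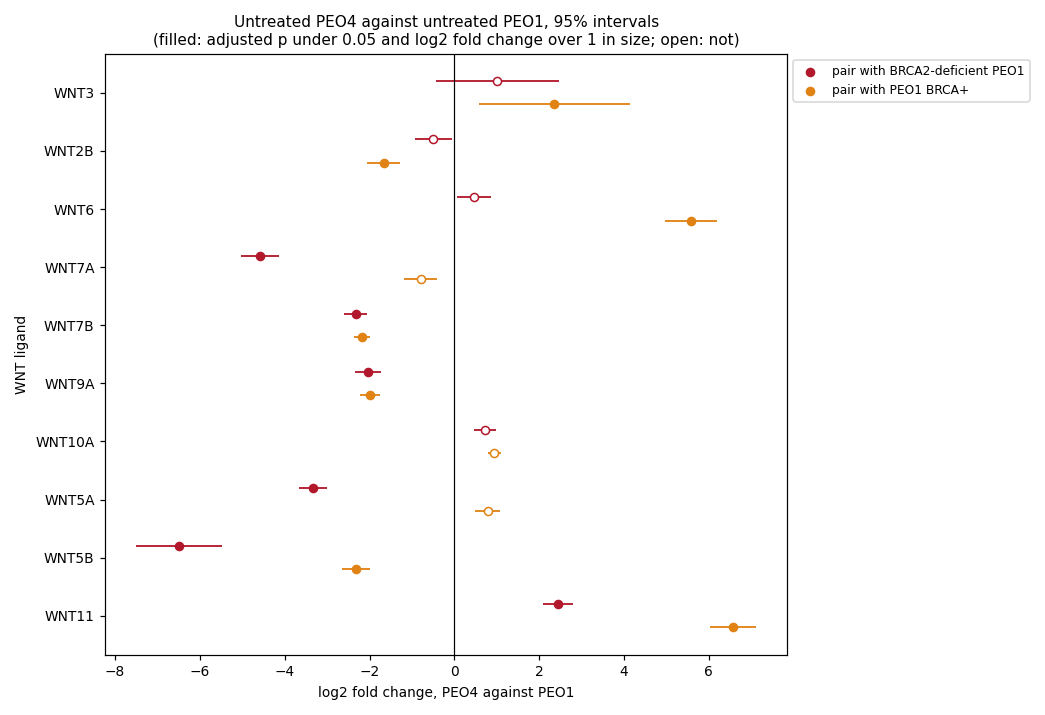
Log2 fold change of untreated PEO4 against untreated PEO1 with its 95% interval, for the 10 ligands in the pair with BRCA2-deficient PEO1 and the pair with PEO1 BRCA+. Filled points were called, and open points were not. WNT7B and WNT9A lie between -2.33 and -1.997 in both pairs, while WNT6 lies at 0.47 and 5.58.

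The difference between the pairs was tested in a fit over all 24 libraries, as the log2 difference of PEO4 from BRCA2-deficient PEO1 minus that from PEO1 BRCA+. It was called higher for 1 ligand and lower for 5, where 6.27% of 17531 genes tested were higher and 8.74% lower. WNT2B was the higher one (1.13, adjusted p = 0.000716), and WNT6 (-5.15), WNT5B (-4.19), WNT11 (-4.17), WNT5A (-4.15) and WNT7A (-3.83) were lower, with an adjusted p of at most 2.2e-07. For WNT7B the difference was -0.19 (95% interval -0.50 to 0.13, adjusted p = 0.353), for WNT9A -0.08 (95% interval -0.44 to 0.28, adjusted p = 0.765) and for WNT10A -0.25 (95% interval -0.54 to 0.03, adjusted p = 0.152), none called, and for WNT3 it was -1.40 (95% interval -3.88 to 1.08, adjusted p = 0.376). The cells of the table of 6 had sodium pyruvate in the medium, and a kit and facility are named for that table alone, and neither these nor other differences between the tables can be told apart from BRCA2 status. PEO4 itself stood at different levels in the tables, with a mean WNT6 of 6.29 and 68.6 CPM, WNT7A of 1.23 and 51.1 CPM, and WNT11 of 17.5 and 73.0 CPM in the tables of 6 and 18.

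**Figure D3:**
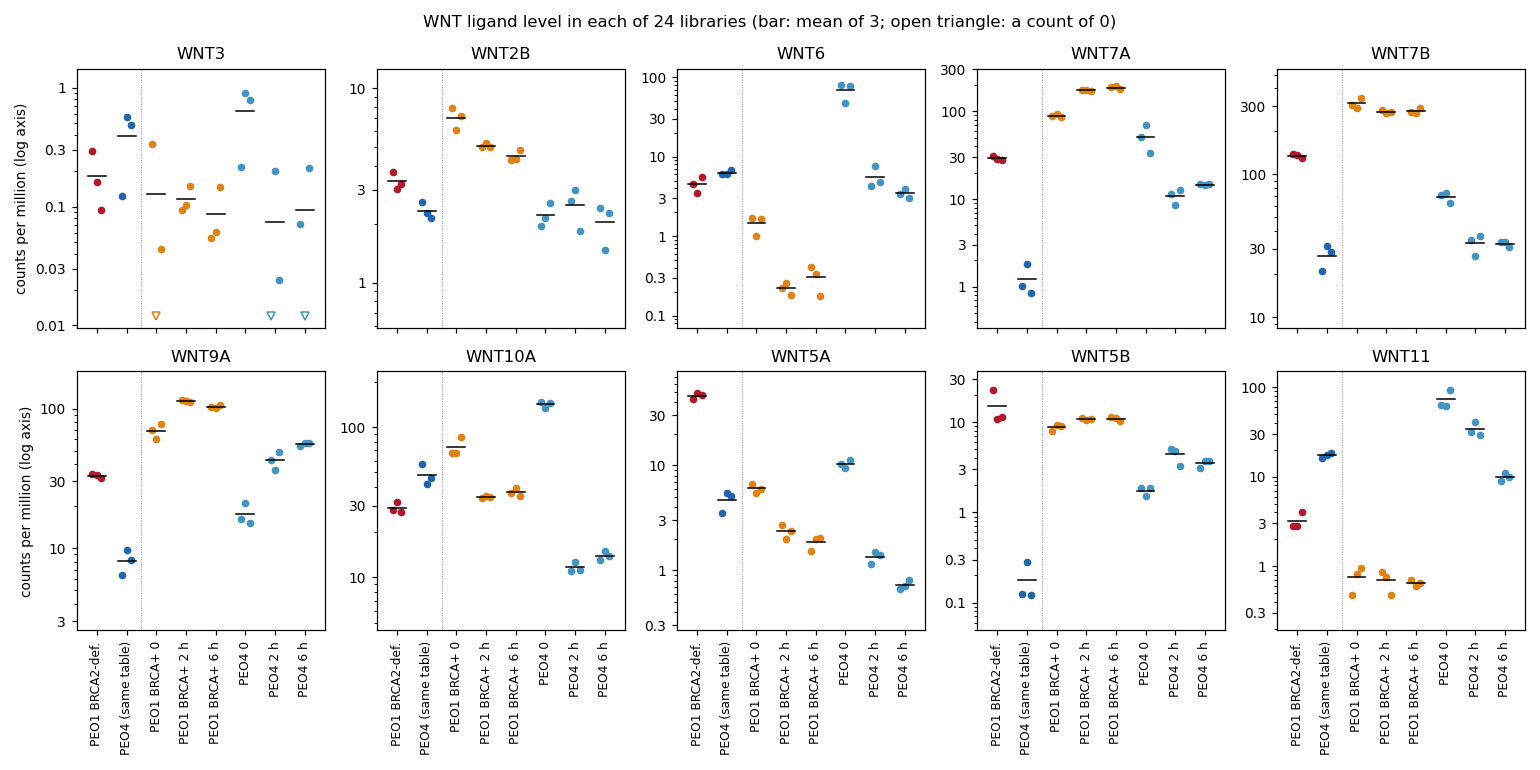
CPM on a log axis of each ligand in the 24 libraries by group, with a bar at the mean of 3 and an open triangle for a count of 0. In PEO4 of the table with PDS, every treated library lies under every untreated one for WNT6, WNT7A, WNT7B, WNT10A, WNT5A and WNT11. Every treated library there lies over every untreated one for WNT9A and WNT5B. Untreated PEO4 of the other table, which was normalised separately, is not part of this comparison.

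Cells treated with PDS were then compared with untreated cells of the same line, and both times share the untreated libraries. In PEO1 BRCA+ at 2 h 0 ligands rose by edgeR and 3 fell (WNT5A, WNT6 and WNT10A), where 1.18% of genes were higher and 6.39% lower. Another 3 were higher at an unadjusted and an adjusted p under 0.05 but under the fold threshold, and DESeq2 called 0 higher. At 6 h 1 rose (WNT7A) and 2 fell (WNT5A and WNT6), where 1.29% were higher and 6.83% lower. In PEO4 2 rose (WNT5B and WNT9A) and 7 fell (WNT3, WNT5A, WNT6, WNT7A, WNT7B, WNT10A and WNT11) at 2 h, where 6.40% were higher and 11.0% lower. At 6 h 1 rose (WNT9A) and 7 fell (WNT3, WNT5A, WNT6, WNT7A, WNT7B, WNT10A and WNT11), where 6.26% were higher and 16.3% lower. The median log2 fold change of the 10 ligands in PEO4 was -1.66 at 2 h and -2.25 at 6 h, against 0 and -0.028 over all genes tested. In PEO1 BRCA+ it was -0.17 and -0.33, against -0.025 and -0.027.

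WNT6 and WNT10A, the neighbours on chromosome 2, fell most in PEO4 at 2 h. WNT6 went from 80.8, 48.0 and 77.1 CPM to 4.25, 7.75 and 4.78 at 2 h and 3.43, 3.94 and 3.02 at 6 h, a log2 fold change of -3.62 (SE 0.224, adjusted p = 2.09e-09) and -4.31 (SE 0.238, adjusted p = 3.8e-10). WNT10A went from 147, 134 and 145 CPM to 11.1, 12.7 and 11.3 at 2 h and 13.0, 14.9 and 13.9 at 6 h, a log2 fold change of -3.60 (SE 0.0892, adjusted p = 1.81e-19) and -3.35 (SE 0.0880, adjusted p = 3.14e-19). Treated and untreated libraries lay far apart for both genes. In PEO1 BRCA+ WNT10A went from 67.2, 67.2 and 86.5 CPM to 33.8, 34.6 and 34.5 at 2 h and 36.4, 39.4 and 34.9 at 6 h, again without overlap. Its log2 fold change was -1.10 (SE 0.0811, adjusted p = 1.09e-10) at 2 h, under the fold threshold at -0.96 without untreated replicate 3, and -0.998 (95% interval -1.16 to -0.83, adjusted p = 3.99e-10) at 6 h, just short of it and past it without untreated replicate 1 or 2 (-1.05 for each) or 6 h replicate 2 (-1.04). WNT6 went from 1.68, 0.991 and 1.67 CPM to 0.220, 0.259 and 0.179 at 2 h and 0.407, 0.333 and 0.176 at 6 h, a log2 fold change of -2.67 (SE 0.596, adjusted p = 0.00163) and -2.20 (SE 0.556, adjusted p = 0.00387), from 6 to 15 counts a treated library.

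WNT7A moved in opposite directions in the lines. In PEO4 it went from 50.7, 69.1 and 33.6 CPM to 11.3, 8.58 and 12.7 at 2 h and 14.8, 14.3 and 14.6 at 6 h, a log2 fold change of -2.23 (SE 0.202, adjusted p = 3.73e-07) and -1.81 (SE 0.198, adjusted p = 1.92e-06). In PEO1 BRCA+ it went from 87.1, 92.1 and 86.4 CPM to 175, 174 and 171 at 2 h and 188, 191 and 179 at 6 h, a difference of 0.97 (95% interval 0.59 to 1.35, adjusted p = 0.00041) at 2 h, under the fold threshold except without untreated replicate 2 (1.009), and 1.07 (SE 0.176, adjusted p = 0.000177) at 6 h. The groups did not overlap in either line. The call in PEO1 BRCA+ at 6 h lies near the threshold, as the log2 fold change was 0.92 with library totals and 0.98 with upper-quartile scaling.

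WNT9A rose in PEO4, against the direction of most ligands there. It went from 16.1, 21.0 and 15.2 CPM to 42.5, 36.5 and 49.1 at 2 h and 53.6, 56.6 and 56.5 at 6 h, a log2 fold change of 1.299 (SE 0.113, adjusted p = 7.78e-09) and 1.68 (SE 0.112, adjusted p = 1.32e-10). PEO1 BRCA+ cells went from 70.4, 60.7 and 77.0 CPM to 115, 113 and 111 at 2 h and 102, 101 and 106 at 6 h, a difference of 0.71 (95% interval 0.50 to 0.92, adjusted p = 9.18e-06) and 0.57 (95% interval 0.36 to 0.78, adjusted p = 8.78e-05), under the fold threshold. Every treated library was higher than every untreated one in both lines. WNT7B in PEO4 went from 71.1, 73.7 and 63.5 CPM to 34.7, 26.7 and 36.9 at 2 h and 33.6, 33.5 and 30.9 at 6 h, a log2 fold change of -1.08 (SE 0.0899, adjusted p = 8.84e-10) and -1.09 (SE 0.0902, adjusted p = 5.6e-10). The groups did not overlap, and the value at 2 h was -0.95 without replicate 2 at 2 h. In PEO1 BRCA+ WNT7B differed by -0.19 (95% interval -0.36 to -0.02, adjusted p = 0.0591) and -0.18 (95% interval -0.35 to -0.01, adjusted p = 0.0774), not called.

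WNT3 and WNT2B stood low throughout. WNT3 in PEO4 had 5, 18 and 17 counts untreated, 0, 7 and 1 at 2 h and 3, 0 and 7 at 6 h in deeper libraries, a log2 fold change of -3.06 (SE 0.832, adjusted p = 0.00292) and -2.70 (SE 0.801, adjusted p = 0.00515). Its size rested on single libraries, as it was -5.21 at 2 h without 2 h replicate 2 and -3.83 at 6 h without 6 h replicate 3. WNT2B in PEO4 went from 1.95, 2.16 and 2.58 CPM to 2.64, 3.00 and 1.85 at 2 h and 2.41, 1.46 and 2.27 at 6 h, with overlapping groups and a difference of 0.15 (95% interval -0.26 to 0.57, adjusted p = 0.511) and -0.11 (95% interval -0.53 to 0.32, adjusted p = 0.653). In PEO1 BRCA+ WNT2B went from 7.91, 6.07 and 7.24 CPM to 4.97, 5.22 and 5.01 at 2 h and 4.28, 4.33 and 4.84 at 6 h, without overlap but under the fold threshold (-0.48, 95% interval -0.81 to -0.15, adjusted p = 0.0151, and -0.65, 95% interval -0.99 to -0.32, adjusted p = 0.00149).

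WNT5A fell in both lines. In PEO4 it went from 10.4, 9.49 and 11.2 CPM to 1.14, 1.50 and 1.39 at 2 h and 0.668, 0.702 and 0.808 at 6 h, a log2 fold change of -2.94 (SE 0.156, adjusted p = 4.69e-14) and -3.84 (SE 0.172, adjusted p = 1.83e-15). PEO1 BRCA+ cells went from 6.61, 5.49 and 6.01 CPM to 2.71, 1.99 and 2.36 at 2 h and 1.52, 2.00 and 2.05 at 6 h, a log2 fold change of -1.36 (SE 0.152, adjusted p = 6.65e-08) and -1.70 (SE 0.157, adjusted p = 2.99e-09). No treated library reached an untreated one. WNT5B in PEO4 went from 1.86, 1.51 and 1.89 CPM to 5.08, 4.84 and 3.31 at 2 h and 3.15, 3.69 and 3.74 at 6 h, without overlap. Its log2 fold change was 1.32 (SE 0.167, adjusted p = 2.12e-07) at 2 h and 0.996 (95% interval 0.64 to 1.35, adjusted p = 1.51e-05) at 6 h, just short of the threshold and past it without untreated replicate 1 or 3 (1.05 for each) or 6 h replicate 1 (1.09). In PEO1 BRCA+ WNT5B differed by 0.30 (95% interval 0.05 to 0.55, adjusted p = 0.0434) and 0.32 (95% interval 0.07 to 0.57, adjusted p = 0.0289).

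WNT11 in PEO4 went from 63.5, 61.6 and 94.0 CPM to 32.0, 41.3 and 28.9 at 2 h and 8.99, 11.0 and 9.88 at 6 h, and no 2 groups overlapped. Its log2 fold change was -1.10 (SE 0.155, adjusted p = 1.25e-05) at 2 h, under the threshold without untreated replicate 3 (-0.88) or 2 h replicate 3 (-0.99), and -2.88 (SE 0.171, adjusted p = 3.62e-10) at 6 h. It was the 1 ligand called between 6 h and 2 h in PEO4, at -1.78 (SE 0.169, adjusted p = 2.35e-07), where 2.27% of genes tested were higher and 9.71% lower. In PEO1 BRCA+ WNT11 had 10 to 29 counts a library and differed by -0.14 (95% interval -1.15 to 0.86, adjusted p = 0.819) and -0.23 (95% interval -1.24 to 0.79, adjusted p = 0.718). Between 6 h and 2 h in PEO1 BRCA+ 0 ligands were called by edgeR, 0 had an unadjusted p under 0.05 and DESeq2 called 0, where 0.0705% of genes tested were higher and 0.0999% lower.

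**Figure D4:**
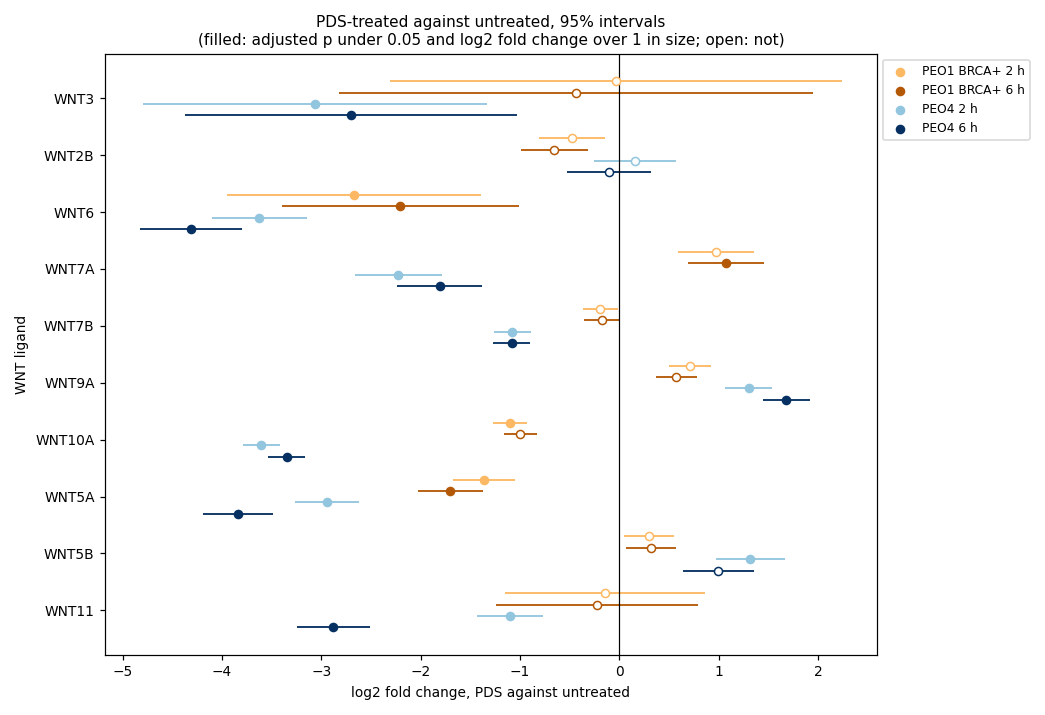
Log2 fold change of PDS-treated against untreated cells with its 95% interval, for the 10 ligands in PEO1 BRCA+ and PEO4 at 2 and 6 h. Filled points were called, and open points were not. In PEO4 WNT6, WNT10A and WNT5A lie between -4.31 and -2.94 and WNT9A at 1.299 and 1.68, and WNT7A lies on opposite sides of 0 in the lines.

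The difference between the responses was tested as the log2 fold change of PEO4 minus that of PEO1 BRCA+. At 2 h it was called higher for 1 ligand and lower for 3, where 6.10% of genes tested were higher and 4.92% lower. WNT7A differed by -3.20 (SE 0.268, adjusted p = 7.87e-07), WNT10A by -2.50 (SE 0.118, adjusted p = 8.55e-14) and WNT5A by -1.58 (SE 0.220, adjusted p = 3.76e-06). WNT5B was the higher one, by 1.02 (SE 0.209, adjusted p = 0.000418), and was under the fold threshold (0.896 to 0.9999) without any 1 of 6 libraries, which were untreated replicates 2 and 3 and 2 h replicate 2 of PEO1 BRCA+, and untreated replicate 2 and 2 h replicates 1 and 2 of PEO4. WNT7B (-0.89, 95% interval -1.14 to -0.63, adjusted p = 6.63e-06), WNT9A (0.59, 95% interval 0.28 to 0.91, adjusted p = 0.00447) and WNT6 (-0.95, 95% interval -2.60 to 0.70, adjusted p = 0.362) were not called. WNT3 differed by -3.02 (95% interval -5.95 to -0.10, adjusted p = 0.098), and was called without untreated replicate 1 of PEO1 BRCA+ (-5.31) or of PEO4 (-3.46) or 2 h replicate 2 of PEO4 (-5.18).

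At 6 h the difference was called higher for 1 ligand and lower for 5, where 5.42% of genes tested were higher and 9.34% lower. WNT9A was higher, by 1.10 (SE 0.150, adjusted p = 8.19e-06). WNT7A differed by -2.88 (SE 0.264, adjusted p = 1.33e-06), WNT11 by -2.65 (SE 0.512, adjusted p = 0.000515), WNT10A by -2.35 (SE 0.117, adjusted p = 2.12e-13) and WNT5A by -2.14 (SE 0.241, adjusted p = 1.23e-07). WNT6 differed by -2.11 (SE 0.715, adjusted p = 0.0254), with an adjusted p of 0.0502 to 0.132 without untreated replicate 2 or 6 h replicate 1 or 2 of PEO1 BRCA+. WNT7B (-0.91, 95% interval -1.16 to -0.65, adjusted p = 3.52e-06) was again under the fold threshold, and WNT3 (-2.26, 95% interval -5.29 to 0.77, adjusted p = 0.213) was called only without untreated replicate 1 of PEO1 BRCA+ (-4.55).

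After 6 h of PDS, PEO4 was higher than PEO1 BRCA+ in 2 ligands and lower in 6, where 9.52% of genes tested were higher and 13.5% lower. WNT11 (log2 fold change 3.91) and WNT6 (3.47) were still higher in PEO4. WNT7A (-3.67), WNT7B (-3.09), WNT5B (-1.65), WNT10A (-1.41), WNT5A (-1.35) and WNT2B (-1.12) were lower, each with an adjusted p of at most 4.26e-06, and WNT2B was under the fold threshold (-0.93) without PEO4 replicate 2 at 6 h. WNT10A and WNT5A had stood higher in every untreated PEO4 library, and after 6 h stood lower in every PEO4 library. WNT9A (-0.89, 95% interval -1.10 to -0.68, adjusted p = 1.76e-07) and WNT3 (0.09, 95% interval -2.16 to 2.34, adjusted p = 0.945) were not called.

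Of the other 9 WNT genes, 3 passed the filter in the table of 6 (WNT4, WNT8B and WNT16) and 4 in the table of 18 (WNT4, WNT8B, WNT10B and WNT16). WNT16 rose in PEO4 with PDS, from 0.563 ± 0.277 CPM to 3.34 ± 0.362 at 2 h and 2.43 ± 0.343 at 6 h (SD, n = 3), a log2 fold change of 2.54 and 2.08. In PEO1 BRCA+ WNT16 fell at 2 h (log2 fold change -1.13, adjusted p = 0.0379), from 5 to 13 counts to 6 to 8 in deeper libraries. WNT4 rose there (1.35, adjusted p = 0.0183), from 4 to 5 counts to 14 to 20 in deeper libraries. In PEO4 at 6 h WNT4 fell from 2 to 4 counts a library to 0 to 1, and WNT8B (log2 fold change -1.89) from 3 to 11 counts to 2 to 5. Between untreated lines WNT16 (-2.19) and WNT4 (-1.71) were lower in PEO4 than in BRCA2-deficient PEO1, and WNT10B (-3.49) was lower than in PEO1 BRCA+. These values rest on few counts a library. In PEO4 and PEO1, WNT16 had 8 to 12 and 46 to 52 counts, WNT4 4 to 6 and 10 to 22, and WNT10B 1 to 2 and 13 to 23.

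The counts of the pathway lists that follow stand against 6.40% of all genes higher and 11.0% lower in PEO4 at 2 h, 6.26% and 16.3% at 6 h, 1.18% and 6.39% in PEO1 BRCA+ at 2 h, 1.29% and 6.83% at 6 h, and 12.2 to 13.1% in each direction between untreated lines. Several genes, such as NOTUM, LEF1, RNF43, ZNRF3 and DKK1, stand in more than 1 list. Genes that load, carry and trim the ligands changed in both directions. Of 10 tested, 3 rose and 3 fell in PEO4 at 2 h, and 2 rose and 3 fell at 6 h. TRABD2A, a protease that inactivates WNT, rose (log2 fold change 2.93 at 6 h), as did the glypican GPC3 (1.11), while TRABD2B, its relative, fell (-3.70). NOTUM, an enzyme that removes the WNT lipid, had 22 to 179 counts a library in untreated PEO4 and 0 in all 3 libraries at 6 h, at least 158-fold lower when the 6 h group is set at 3 counts in all. The carrier WLS was at 75.01 CPM in untreated PEO4 and 31.0 at 6 h (log2 fold change -1.27), and PORCN was at 12.6 and 7.45 CPM, and these 2 are named here with their values known. In PEO1 BRCA+ 2 rose (GPC4 1.03 and SULF2 1.010) and 1 fell (SULF1 -3.04) at 2 h, and 1 fell at 6 h (SULF1 -2.71). In untreated cells 3 were higher and 4 lower in PEO4 than in BRCA2-deficient PEO1 (NOTUM 6.54, GPC3 3.02, TRABD2A -5.62, SULF1 -4.28), and 5 were higher and 2 lower than in PEO1 BRCA+ (SULF1 3.81, TRABD2A -5.25, GPC4 -1.34), with NOTUM at least 98.9-fold higher there.

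Among secreted antagonists, of 5 tested, 1 fell in PEO4 at 2 h (SOST -4.73) and 2 at 6 h (SOST -4.38 and FRZB -1.15), and 2 were higher and 2 lower in PEO4 than in BRCA2-deficient PEO1 (DKK3 1.299, SOSTDC1 1.006, DKK1 -5.15 and SFRP1 -4.20). Against PEO1 BRCA+ 2 were higher (SOST, with 12 to 34 counts a library in PEO4 and 1 count over all 3 of PEO1 BRCA+, and FRZB 1.67) and 1 lower (DKK1 -1.87). The counts of receptors lay near those shares at 2 h and nothing is read from them. Of 15 receptors tested, 2 fell in PEO4 at 2 h (ROR1 -1.95 and FZD1 -1.38), and 1 rose (FZD8 1.03) and 4 fell at 6 h, led by FZD10 (2 to 3 counts a library untreated and 1 count over all 3 at 6 h) and ROR1 (-1.79), a receptor of WNT5A. In PEO1 BRCA+ 1 fell at 6 h (FZD7 -1.20). Between untreated lines PEO4 was higher in 2 receptors and lower in 3 against BRCA2-deficient PEO1 (FZD4 1.88, FZD5 1.31, FZD10 -2.82 and FZD7 -1.62), and higher in 3 and lower in 2 against PEO1 BRCA+ (FZD4 1.26, FZD1 1.26, FZD10 -6.10 and ROR1 -1.93).

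Of 5 tested genes of the R-spondin module, which sets receptor turnover, 2 fell in PEO4 at 2 h (LGR6 -3.72 and ZNRF3 -1.46) and 1 at 6 h (LGR6 -4.69), and 1 fell in PEO1 BRCA+ at 6 h (RNF43 -1.12). In PEO4 3 were higher than in BRCA2-deficient PEO1, led by LGR6 (3.02) and RNF43 (1.26), and 2 were higher (LGR6 2.72 and ZNRF3 1.22) and 1 lower (RSPO4 -1.303) than in PEO1 BRCA+. Relay genes fell in shares not far from those of all genes. Of 18 relay genes 3 fell in PEO4 at 2 h, led by LEF1 (-4.56) and BCL9 (-1.10), and 4 at 6 h. LEF1, a partner of beta-catenin, had 2 to 18 counts a library untreated and 0 in all 3 at 6 h, at least 18.4-fold lower, and APC2 fell by 1.40 on the log2 scale. DVL1 was higher in PEO4 than in BRCA2-deficient PEO1 (1.02), and PYGO1 lower than in PEO1 BRCA+ (-1.17).

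Of 10 beta-catenin target genes tested, 6 fell in PEO4 at 2 h and 4 at 6 h, with a median log2 fold change of -1.39 and -0.80 against 0 and -0.028 over all genes tested. AXIN2, named here with its values known, was at 26.2 ± 13.8 CPM in untreated PEO4, 2.97 ± 0.353 at 2 h and 1.24 ± 0.268 at 6 h, a log2 fold change of -3.15 and -4.38. In PEO1 BRCA+ AXIN2 was at 0.957 CPM untreated, 1.012 at 2 h and 0.856 at 6 h. There 1 of 10 targets fell at 2 h (SP5 -1.62) and 2 at 6 h (SP5 -1.40 and RNF43 -1.12). Untreated, 4 targets were higher and 2 lower in PEO4 in each pair (of 9 tested in the table of 6), with AXIN2 at 2.40 against BRCA2-deficient PEO1 and 4.77 against PEO1 BRCA+, and SP5 at -1.35 and -1.39.

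The nearest tested genes on either side of the members were mostly not called with PDS in PEO4. Beside WNT7A, FGD5P1 fell at 2 h (log2 fold change -4.43) and 6 h (-2.60) and FBLN2 fell at 6 h (-1.71), and WNT6 and WNT10A are neighbours of each other. On their outer sides, CYP27A1 differed by 0.91 (adjusted p = 0.00069) at 2 h and -0.57 (adjusted p = 0.0321) at 6 h. CDK5R2 differed by 2.93 (adjusted p = 0.223) and 3.36 (adjusted p = 0.146), and neither gene was called. Those beside WNT2B, WNT3, WNT5A, WNT5B, WNT7B, WNT9A and WNT11 were not called at either time.

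Over the 18 libraries, the gene whose log2 CPM was most like that of each ligand is given as a description, since the libraries share lines and treatments. It was SBF1 for WNT7B (Pearson r 0.996), CFI for WNT11 (0.993), ITGA6 for WNT9A (0.992), RHPN1 for WNT6 (0.989), ABCA4 for WNT5A (0.989), PTGER2 for WNT10A (0.986), PLCXD3 for WNT5B (0.983), MGLL for WNT7A (0.979), PROM1 for WNT2B (0.972) and RAB40A for WNT3 (0.799). Within the family WNT7A was most like WNT7B (0.945), WNT5A most like WNT10A (0.944), WNT5B most like WNT9A (0.917) and WNT6 most like WNT11 (0.909).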

How the data were processed

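RNA of 8 groups of 3 libraries each was sequenced in paired ends after poly(A) enrichment, and the labels name a directional kit for the table of 6 alone. The authors deposited raw counts per gene, in a table of 6 and a table of 18 libraries. The submitters' processing notes name FastQC, fastp, STAR, featureCounts and hg38, and the strand setting is not given in the sources used here. Of counts from 1 to 50, 66.7 to 71.5% were even in the table of 6 and 42.8 to 45.0% in the table of 18, so that both mates of a fragment may have been counted in the former. Unreadable gene lines (2 and 1) were left out.

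Each table was fitted whole in edgeR 4.0.16 (R 4.3.3, limma 3.58.1) by the quasi-likelihood F test with robust estimation, TMM scaling, filterByExpr (minimum count 10, total 15) and 1 mean per group, with 4, 12 and 16 residual degrees of freedom for the tables of 6 and 18 and for both together. P-values were adjusted by Benjamini-Hochberg. CPM were counts scaled to TMM-adjusted library size within a table. Alternatives were other scalings, no filter, DESeq2 1.42.0, the adjusted p alone, fits of only the groups compared, a replicate block, leaving out each library, and, chosen after seeing the data, halved counts in the table of 6. The 10 members, the pathway and marker lists and the rule for named genes were chosen with earlier results of these data known. The rule named all members, the other WNT genes that passed the filter, the 2 called genes with the largest change per direction of each pathway list, the nearest tested gene on either side of each member, and the gene most like each member over 18 libraries. Depth limits genes of few counts, such as WNT3.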

Additional observations from a re-analysis of the deposited data

Results flagged for a closer look

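The response to PDS differed between PEO4 and PEO1 BRCA+ by the interaction test for 4 ligands at 2 h and 6 at 6 h, given as the log2 fold change of PEO4 minus that of PEO1 BRCA+. At 2 h these were WNT5B (1.02), WNT5A (-1.58), WNT10A (-2.50) and WNT7A (-3.20). At 6 h they were WNT9A (1.10), WNT6 (-2.11), WNT5A (-2.14), WNT10A (-2.35), WNT11 (-2.65) and WNT7A (-2.88).

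The difference between untreated PEO4 and PEO1 itself differed between the pair with BRCA2-deficient PEO1 and the pair with PEO1 BRCA+ for 6 ligands, given as the former minus the latter on the log2 scale. These were WNT2B (1.13), WNT7A (-3.83), WNT5A (-4.15), WNT11 (-4.17), WNT5B (-4.19) and WNT6 (-5.15). BRCA2 status, medium and other differences between the tables cannot be told apart here.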

How the results depend on the processing

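Over all alternatives, 1792 of 1858 log2 fold changes of members kept their side of the call thresholds, 21 lost a call and 45 gained one. No called value reversed, while 25 of the 1792, not called, changed sign. Of 374 counts of called members, 25 moved by over 1.5 times. With the adjusted p alone the ligands higher in PEO4 were 3 beside BRCA2-deficient PEO1 and 5 beside PEO1 BRCA+, those higher with PDS in PEO1 BRCA+ were 3 at 2 h and 3 at 6 h, with 4 lower at 6 h, those higher in PEO4 were 2 at 6 h, those higher at 6 h than at 2 h were 2 and those lower 4, and the differences in response that were higher were 2 at 2 h and 2 at 6 h. In PEO1 BRCA+ at 6 h, 0 ligands were higher with library totals and 0 with upper-quartile scaling. In PEO4 at 6 h 2 were higher with no filter, and 0 differences in response at 2 h were higher with DESeq2 size factors. WNT10A in PEO1 BRCA+ at 6 h was called with library totals (-1.14), upper-quartile scaling (-1.09), DESeq2 and its size factors and a fit of only the groups compared (-1.01 each). When single libraries were left out, the members called higher ranged from 1 to 2 beside BRCA2-deficient PEO1, from 0 to 1 in PEO1 BRCA+ at 2 h, from 1 to 2 in PEO4 at 6 h and from 0 to 1 for the difference in response at 2 h. The order per length was the same in 80 of 80 ranks with the longest transcript. With the replicate block every count of called members equalled that without it, such as 2 higher and 7 lower in PEO4 at 2 h. Numbers did not pair the samples, since same-numbered libraries had r between -0.16 and 0.13 in 48 pairs, of which 17 were best with their own number. Depth limits WNT3, WNT6 and WNT11 in PEO1 BRCA+, where few counts stand behind each value.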
